A study of Mus musculus with 24 samples.

Results

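Adenylyl cyclases are the enzymes that make the second messenger cyclic AMP (cAMP) from ATP. The 8 genes described here are Adcy1, Adcy2, Adcy3, Adcy5, Adcy6, Adcy7, Adcy8 and Adcy9, taken by symbol from a table of read counts for 54532 genes, and all 8 passed the filter on low counts that left 19667 genes for testing. Each was followed through 24 libraries of mouse striatum, 1 library per animal, from 4 genotypes with 6 animals each, 3 male and 3 female, all on the strain C57BL/6. The genotypes were wild type (WT), deletion of Tyrobp (TyrobpKO), heterozygosity for Q175 (Q175), and Q175 heterozygosity together with the Tyrobp deletion (Q175_TyrobpKO). Q175 mice carry an expanded CAG tract in their own huntingtin gene Htt and serve as a Huntington's disease model, and Tyrobp encodes an adaptor protein of microglial receptors. The tissue was the striatum of a single hemisphere, and age was not in the labels used here. Nothing in the labels ties any animals to a litter, so p-values measure the spread between these 24 animals. The animal numbers carry a prefix that both deletion genotypes share, another shared by the 6 Q175 animals and WT replicate 3, and a further one for the other 5 WT animals. What the prefix stands for is not stated, so any difference it marks cannot be told apart from Tyrobp genotype. The comparison of Q175 with WT is also split by prefix, except for WT replicate 3. There such a difference can hardly be told apart from the Q175 allele.

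The membrane cyclases are switched on by receptors that couple to the stimulatory G proteins Gs and Golf and switched off by receptors that couple to Gi and Go. The isoforms differ in what else they respond to: Adcy1, Adcy3 and Adcy8 are regulated by calcium and calmodulin, Adcy2 and Adcy7 are stimulated by G protein beta-gamma subunits, Adcy5 and Adcy6 are inhibited by calcium and by Gi, and Adcy9 is little sensitive to forskolin. Adcy5 is known as the main cyclase of the striatal projection neurons, where it joins dopamine D1 receptors (Drd1) and adenosine receptors (Adora2a) to protein kinase A and phosphodiesterases end the signal.

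The sequence just before the transcription start is shown for the pair of members that fell with Q175, Adcy5 and Adcy9, so that promoters can be read side by side. It is also shown for Adcy1 and Adcy2, the members with the steepest rise with cortical markers. Each is 250 bases ending at the base before the start in RefSeq (GRCm38.p6), 5′ to 3′ on the gene's strand. Capitals mark the GC box GGGCGG and the TGACG core of the cAMP response element, searched on both strands. The windows are chr16:35154614-35154863 on the plus strand for Adcy5, chr16:4420499-4420748 on the minus strand for Adcy9, chr11:7063183-7063432 on the plus strand for Adcy1 and chr13:68999542-68999791 on the minus strand for Adcy2.
Adcy5: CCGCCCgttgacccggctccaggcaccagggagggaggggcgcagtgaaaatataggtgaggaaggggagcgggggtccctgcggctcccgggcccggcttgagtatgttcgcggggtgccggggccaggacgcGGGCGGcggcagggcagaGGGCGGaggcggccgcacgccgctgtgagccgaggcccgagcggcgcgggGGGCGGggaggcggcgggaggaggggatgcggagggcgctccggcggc
Adcy9: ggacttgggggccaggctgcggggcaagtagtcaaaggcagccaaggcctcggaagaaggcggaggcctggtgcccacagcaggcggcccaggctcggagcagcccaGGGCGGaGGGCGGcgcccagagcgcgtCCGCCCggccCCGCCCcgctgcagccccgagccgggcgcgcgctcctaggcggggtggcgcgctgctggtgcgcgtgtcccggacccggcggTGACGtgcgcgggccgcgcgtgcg
Adcy1: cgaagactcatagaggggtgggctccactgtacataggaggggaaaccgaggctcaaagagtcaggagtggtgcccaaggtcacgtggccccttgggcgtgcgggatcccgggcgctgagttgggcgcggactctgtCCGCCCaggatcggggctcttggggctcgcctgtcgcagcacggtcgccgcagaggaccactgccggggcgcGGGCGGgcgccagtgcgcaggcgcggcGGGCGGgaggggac
Adcy2: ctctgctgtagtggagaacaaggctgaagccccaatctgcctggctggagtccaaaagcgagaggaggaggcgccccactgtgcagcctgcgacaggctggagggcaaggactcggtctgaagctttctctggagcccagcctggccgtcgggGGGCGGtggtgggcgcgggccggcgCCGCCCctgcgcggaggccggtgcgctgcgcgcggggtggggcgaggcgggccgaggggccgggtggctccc

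All 4 windows were rich in G and C. The GC content was 78.0% for Adcy5, 78.8% for Adcy9, 71.2% for Adcy1 and 73.2% for Adcy2, against a median of 52.4% over 32851 promoter windows of the same length. Adcy5 and Adcy9 each held 4 GC boxes, Adcy1 held 3 and Adcy2 held 2, and 32.7% of all windows held at least 1. Adcy9 had the 1 TGACG core of the 4 windows, with its first base at position -24, and 17.8% of all windows held such a match. The full cAMP response element TGACGTCA, which contains that core, was in none of the 4 and in 1.55% of all windows. The letters TATAAA were in none of the 4 (12.4% of all windows), and CCAAT was in Adcy2 alone of the 4 (33.8% of all windows). These are matches of letters, not sites shown to be bound. Of the 8 members, 6 had a RefSeq window.

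The genes lie on 6 chromosomes, with Adcy5 (ENSMUSG00000022840, chr16:35154877-35305738, plus strand) and Adcy9 (ENSMUSG00000005580, chr16:4287529-4420498, minus strand) both on chromosome 16. Adcy6 and Adcy8 share chromosome 15. The table's coordinates of all 8 equal those of GENCODE M21 on GRCm38, where all are protein coding. The use of strand in counting was not stated. Exon sequence of Adcy3 lies within the span of Cenpo on the opposite strand, a gene whose reads came to 7.57% of those of Adcy3. The same holds for Adcy2 and the antisense gene Gm35161 (1.57%). Whether the exons of these pairs overlap was not checked, so some of their reads could be misassigned. Within the span of Adcy5, AC171205.1 on the same strand had 2.05% of its reads and touched no exon of it.

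Adcy5 was the most abundant cyclase of the striatum in every genotype. Levels of different genes were compared per kilobase of transcript, as CPM (counts scaled to library size with TMM factors) divided by the table's gene length. In WT, Adcy5 stood at 228 ± 35.8 CPM per kb (SD, n = 6) and Adcy1, the calcium-stimulated cyclase best known from cortex and hippocampus, at 42.8 ± 13.3. Below them came Adcy2 at 18.2 ± 4.01, Adcy9 at 15.1 ± 1.4 and Adcy3 at 10.8 ± 1.15 CPM per kb. Adcy6, the closest relative of Adcy5, was at 3.73 ± 0.722, Adcy7 at 1.07 ± 0.0724 and Adcy8 at 0.992 ± 0.365 CPM per kb.

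The libraries of neighbours in this order overlapped for some pairs. In WT the lowest Adcy1 library (23.1 CPM per kb) was below the highest Adcy2 library (25.5), and Adcy2 (13.7 to 25.5) overlapped Adcy9 (13.3 to 17.2). Adcy7 and Adcy8 overlapped in every genotype and changed places: Adcy8 had the higher mean in TyrobpKO (1.12 against 0.953 CPM per kb) and in Q175_TyrobpKO (1.04 against 0.896). Adcy5 lay above all other members in all 24 libraries, from 100.2 CPM per kb upward.

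Of the summed per-kb level of the 8 genes, Adcy5 made up 58.0% to 79.5% in WT libraries (median 71.4%) and 49.2% to 70.5% in Q175 (median 63.7%). Its median share was 61.4% in TyrobpKO and 58.8% in Q175_TyrobpKO. Adcy1 had the next highest median share, from 13.5% in WT to 20.8% in Q175_TyrobpKO. Ranges of the share of Adcy5 overlapped between all genotypes. These shares have no test, since a fall of 1 gene raises the share of the others.

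**Figure D1:**
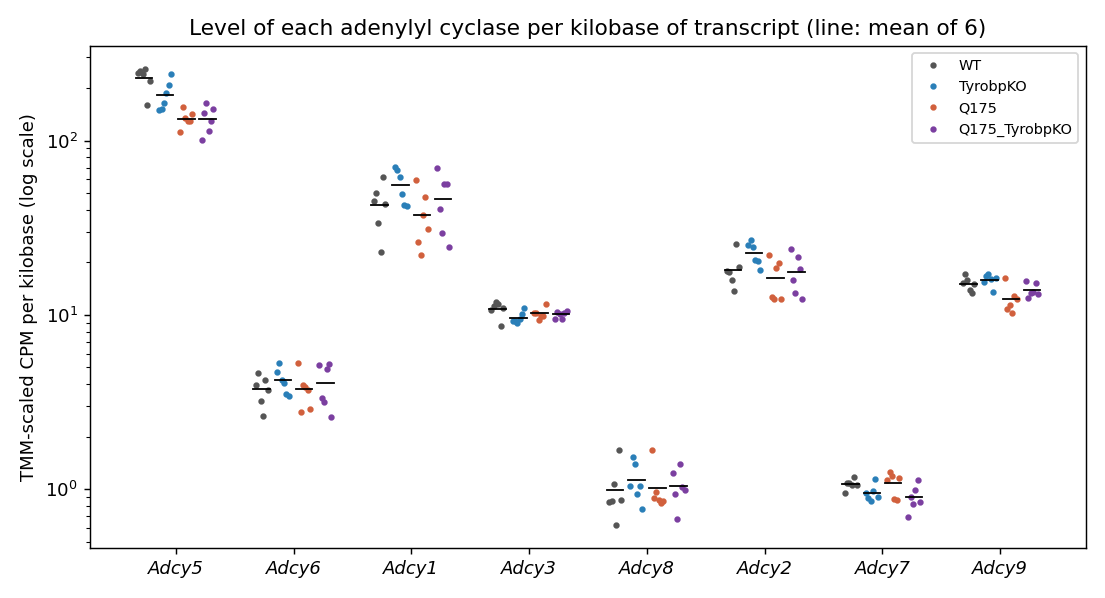
Level of each cyclase in TMM-scaled CPM per kilobase of transcript (vertical axis, log scale) for the 8 genes (horizontal axis), with 1 point per library, colours for the 4 genotypes and a line at the mean of 6. Adcy5 lies above the other 7 in every genotype, with a WT mean of 228 CPM per kb, and Adcy7 and Adcy8 overlap near 1.

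The first comparison asked what the Q175 allele changed with Tyrobp intact. Adcy5 was lower in every Q175 animal than in any WT animal, Adcy9 was lower by a smaller amount, and the other 6 cyclases did not pass the test. In edgeR's quasi-likelihood test with Benjamini-Hochberg adjustment over 19667 genes, 2 of the 8 members were called, both lower, where 9.63% of all genes tested were called, 5.47% lower and 4.15% higher. The median log2 fold change of the 8 was -0.12, against 0.01 over all genes tested. In bulk tissue, fewer cells of a type and less RNA per cell cannot be told apart.

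Adcy5 had 1149, 1735 and 1854 CPM as its lowest, median and highest WT library. In Q175 the lowest, median and highest were 808, 948 and 1112 CPM. The groups did not overlap, which held in the lower direction for 2.39% of genes tested, and the WT library nearest to Q175 was replicate 5. The log2 fold change was -0.78 ± 0.13 (SE; edgeR's quasi-likelihood adjusted p = 5e-04), so that the level fell by 41.6%. WT replicate 3, which shares its prefix with the Q175 animals, had 1724 CPM and lay above all 6 of them. Adcy5 was called with each of the 24 libraries left out in turn, with log2 fold changes of -0.86 to -0.73 and a highest adjusted p of 0.00257. In males alone the log2 fold change was -0.86 (adjusted p = 0.00602) and in females alone it was -0.68 (adjusted p = 0.0642), which did not pass, with 3 animals a group. Whether these estimates differ was tested only with both Tyrobp backgrounds averaged, where the difference between the sexes' Q175 effects on Adcy5 had an edgeR quasi-likelihood unadjusted p of 0.361.

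Adcy9 had a lowest, median and highest level of 69.1, 78.5 and 89.5 CPM in WT. In Q175 these were 53.5, 61.4 and 84.7 CPM. The groups overlapped through Q175 replicate 1, at 84.7 CPM, while the other 5 Q175 libraries were all below the lowest WT library. The log2 fold change was -0.29 ± 0.08 (SE; edgeR's quasi-likelihood adjusted p = 0.0249). The call was lost without WT replicate 2 (adjusted p = 0.0677), Q175 replicate 2 (0.0692), Q175 replicate 3 (0.0653) or Q175 replicate 4 (0.0643), with log2 fold changes of -0.26, -0.25, -0.26 and -0.25. It was also lost when only the 12 WT and Q175 libraries were fitted (adjusted p = 0.0605). WT replicate 3, of the Q175 prefix, had 81.9 CPM and lay above 5 of the 6 Q175 libraries.

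Among the other members the estimates were small or imprecise. The calcium-regulated Adcy1 had a log2 fold change of -0.20 ± 0.29 and Adcy8 of 0.02 ± 0.23, where the SE alone covers a wide range. Adcy2 gave -0.16 ± 0.19 and Adcy6 gave 0.00 ± 0.18. For Adcy3 (-0.09 ± 0.07) and Adcy7 (0.02 ± 0.12) the errors were smaller. In edgeR's quasi-likelihood test the adjusted p of these 6 ran from 0.487 for Adcy3 to 0.999 for Adcy6, and their Q175 and WT libraries overlapped. With each library left out in turn, Adcy1 ran from -0.38 to -0.03, Adcy2 from -0.27 to -0.02 and Adcy3 from -0.15 to -0.05, never called.

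**Figure D2:**
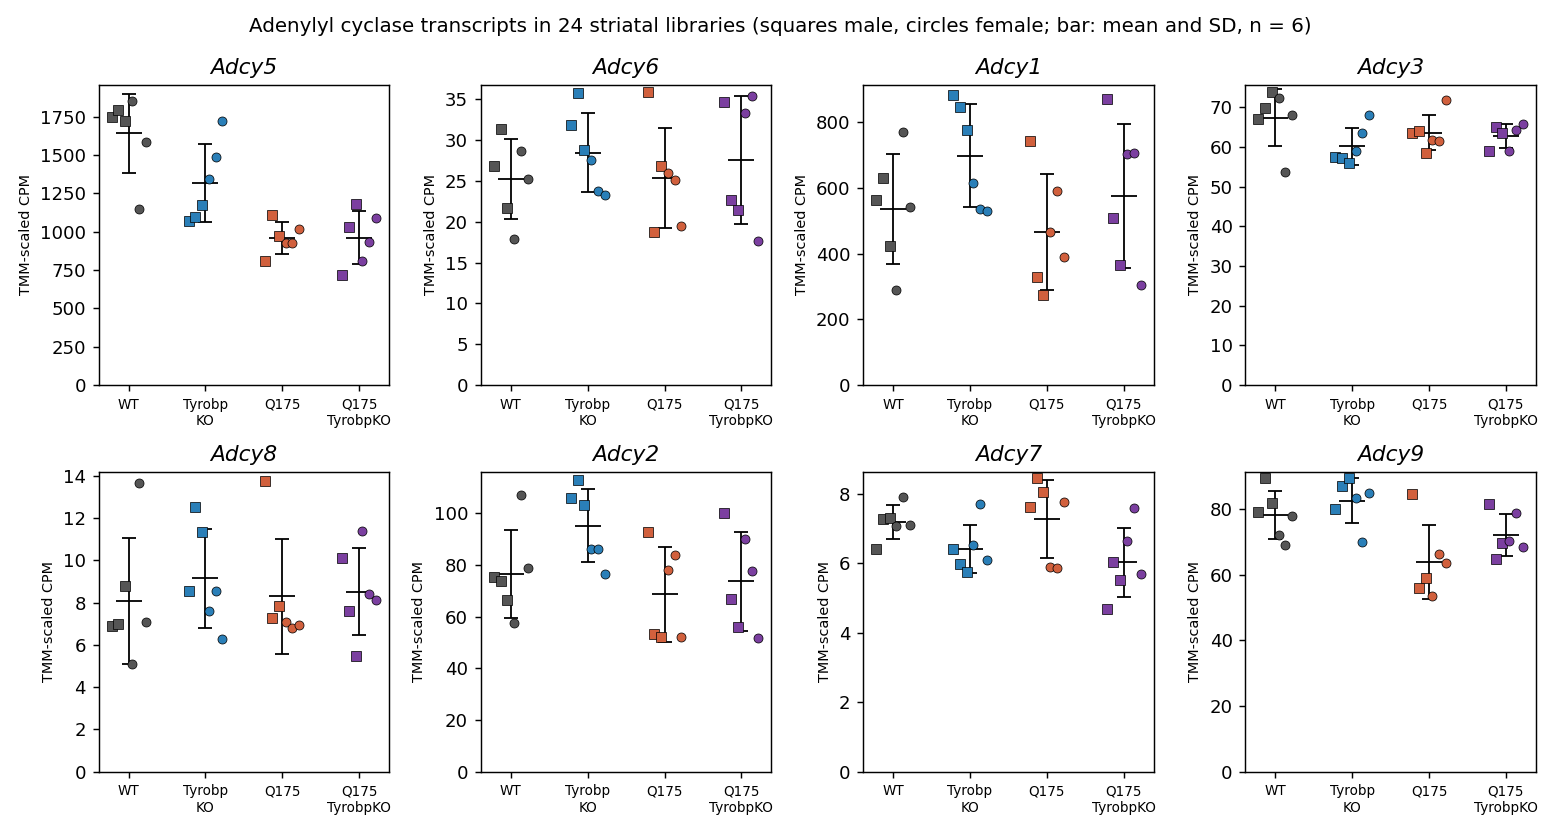
Level of each cyclase in TMM-scaled CPM (vertical axes, each from 0) by genotype, with 1 point per library (squares male, circles female) and bars for the mean and SD of 6. Adcy5 is lower in all 6 Q175 libraries (808 to 1112 CPM) than in all 6 WT libraries (1149 to 1854 CPM), and Adcy1, Adcy2, Adcy6 and Adcy8 are widely spread within each genotype.

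The same allele was compared in mice without Tyrobp, where both groups share a prefix. Adcy5 was again lower with Q175, and no other cyclase passed the test: in edgeR's quasi-likelihood test 1 of the 8 was called, where 5.86% of all genes were called, 3.08% lower and 2.78% higher. The lowest, median and highest Adcy5 levels were 1072, 1261 and 1722 CPM in TyrobpKO. In Q175_TyrobpKO they were 720, 981 and 1180 CPM. These groups overlapped, because TyrobpKO replicates 1, 2 and 3 lay at 1072, 1095 and 1175 CPM and Q175_TyrobpKO replicates 3 and 6 at 1180 and 1089 CPM. The log2 fold change was -0.45 ± 0.13 (SE; edgeR's quasi-likelihood adjusted p = 0.0471), a level that fell by 26.8%.

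This call of Adcy5 lay at the edge of the threshold. It held with WT replicate 5, TyrobpKO replicate 1 or 2, Q175 replicate 1 or 2 or Q175_TyrobpKO replicate 3 left out and was lost with any of the other 18 libraries left out, with log2 fold changes of -0.53 to -0.35 and an adjusted p of up to 0.138 (without TyrobpKO replicate 6). In males alone the log2 fold change was -0.19 (adjusted p = 0.697) and in females alone -0.69 (adjusted p = 0.0498), and the difference between them was not tested in this background. It was lost with limma-voom (adjusted p = 0.0519), with no filter on low counts (0.121) and with only the 12 libraries compared (0.0865).

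For Adcy9 the lowest, median and highest levels were 70.1, 84.2 and 89.3 CPM in TyrobpKO and 64.7, 70.0 and 81.4 CPM in Q175_TyrobpKO. These overlapped, and the log2 fold change of -0.19 ± 0.08 did not pass (edgeR's quasi-likelihood adjusted p = 0.212). Adcy2, stimulated by beta-gamma subunits, had -0.37 ± 0.19 (adjusted p = 0.321). The remaining 5 lay between -0.26 for Adcy1 and 0.06 for Adcy3, with adjusted p from 0.699 upward.

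With both Tyrobp backgrounds averaged, Q175 carriers against non-carriers gave 2 called members, both lower, in a comparison where 18% of genes were called and 9.17% were called lower. Adcy5 had a log2 fold change of -0.61 ± 0.09 (edgeR's quasi-likelihood adjusted p = 6.09e-05) and Adcy9 of -0.24 ± 0.06 (adjusted p = 0.00475). Both remained called with each library left out in turn, at -0.65 to -0.56 for Adcy5 and -0.29 to -0.22 for Adcy9. Adcy2 had -0.26 ± 0.13 and did not pass (adjusted p = 0.202). Whether the Q175 effect on Adcy5 depends on Tyrobp was tested by the interaction, which was 0.33 ± 0.19 on the log2 scale (edgeR's quasi-likelihood unadjusted p = 0.0983, adjusted p = 0.999). No member had an unadjusted interaction p under 0.05. Over all genes 0 were called in that test (0% of those tested) and 707 had an unadjusted p under 0.05, while DESeq2 called 2 genes.

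**Figure D3:**
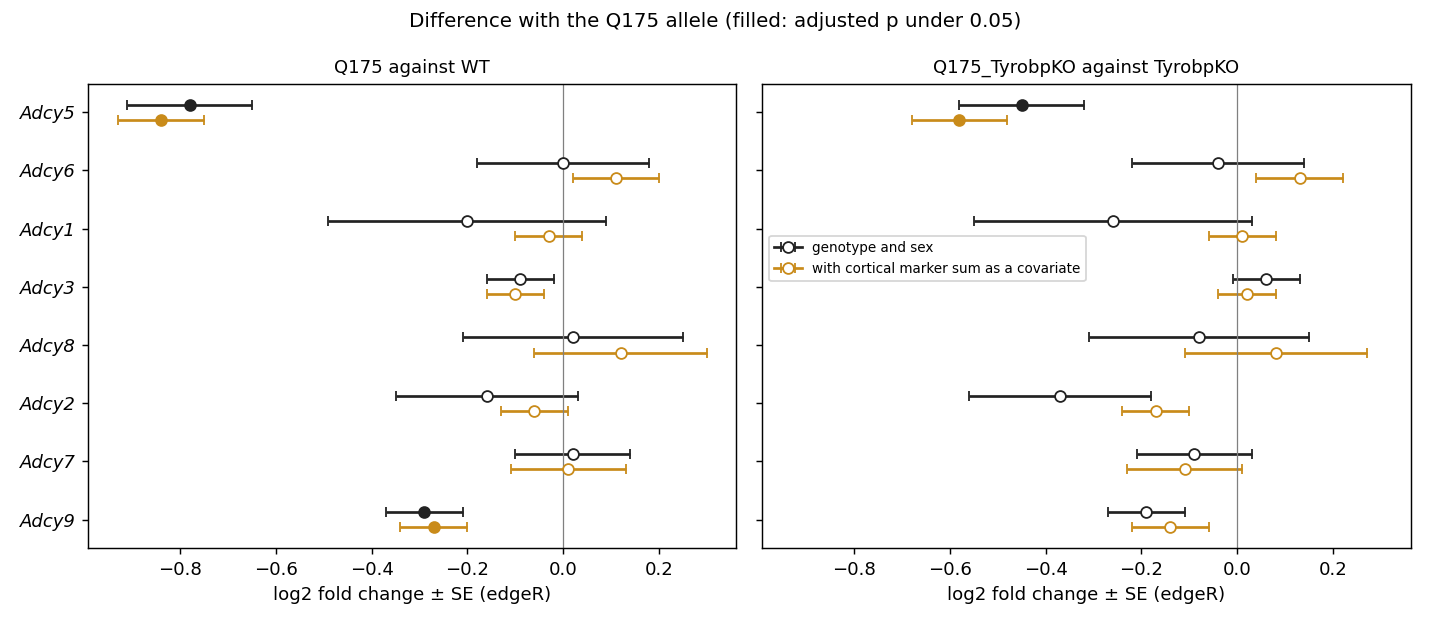
Log2 fold change with SE (horizontal axis, edgeR) of the 8 cyclases (vertical axis) with the Q175 allele, on the left with Tyrobp intact and on the right with Tyrobp deleted. Black is the fit with genotype and sex and ochre adds the summed cortical marker level, with filled points for an adjusted p under 0.05, and Adcy5 is at -0.78 and -0.84 on the left and at -0.45 and -0.58 on the right.

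No cyclase passed the test for the loss of Tyrobp by itself. In TyrobpKO against WT 0 of 8 were called in edgeR's quasi-likelihood test, where 0.117% of all genes were called, and DESeq2 and limma-voom also called 0. Unadjusted p was under 0.05 for 2 members: Adcy3 with a log2 fold change of -0.17 ± 0.07 and Adcy5 with -0.32 ± 0.13, both with an adjusted p of 0.749. Adcy9 had 0.08 ± 0.08 and Adcy7 -0.16 ± 0.12. With the summed cortical markers (described below) in the edgeR fit, Adcy3 was at -0.12 ± 0.06 and Adcy5 at -0.18 ± 0.10. With the summed projection neuron markers in the fit, they were at -0.05 ± 0.05 and -0.05 ± 0.04. None of these values had an unadjusted quasi-likelihood p under 0.05. The Adcy5 levels of the 3 male TyrobpKO mice (1072 to 1175 CPM) were the lowest of that genotype, and its 3 females had 1347, 1487 and 1722 CPM. Summed projection neuron markers ran from 5822 to 6243 CPM in those males and from 7123 to 9178 CPM in the females. Summed cortical markers ran from 823 to 1070 CPM in the males and from 521 to 685 CPM in the females. The estimates for males and females alone with Tyrobp deleted rest in part on these same animals. The part of the marker sums in them was not tested.

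Within Q175 carriers the loss of Tyrobp left Adcy5 at nearly the same mean, 960.0 CPM in Q175 and 961 CPM in Q175_TyrobpKO, with SDs that were 10.6% and 18.1% of the mean (n = 6). The log2 fold change was 0.00 ± 0.13 (SE). Here too 0 of 8 were called in edgeR's quasi-likelihood test (0.158% of all genes) and 0 by DESeq2 or limma-voom. Adcy7, a cyclase of immune cells and microglia, had -0.28 ± 0.12 (unadjusted p = 0.0256, adjusted p = 0.818) and Adcy9 0.18 ± 0.08 (unadjusted p = 0.0424, adjusted p = 0.827), and Adcy3 had -0.02 ± 0.07. Adcy7 was a low-count gene, with 145 to 242 reads per library, and its levels in Q175 (5.86 to 8.45 CPM) and Q175_TyrobpKO (4.69 to 7.59 CPM) overlapped.

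The remaining contrasts added no further member. Q175_TyrobpKO against WT called 1 of 8, Adcy5, where 9.44% of genes were called. With the Tyrobp-deleted genotypes set against the intact ones, edgeR called 0 of 8 (0.208% of all genes), with Adcy7 and Adcy9 at an unadjusted p under 0.05. Between females and males edgeR called 0 of 8 (0.0814% of all genes) and no member had an unadjusted p under 0.05. The sex difference of the Q175 effect also called 0 of 8 and 0% of all genes in edgeR, with no member and 593 genes at an unadjusted p under 0.05.

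Facts of the whole series bear on these values as follows. Libraries held 25482686 to 34626720 counts, and Adcy5 had 20854 to 50420 reads in each. Tyrobp was at 0.214 to 0.448 CPM in TyrobpKO, 0.218 to 0.323 in Q175_TyrobpKO and at 5.70 to 11.8 in the genotypes with Tyrobp intact, as the labels say. Htt was lower in Q175 than in WT (log2 fold change -0.46 ± 0.06). Defining markers of striatal projection neurons were abundant in all libraries, with none of 14 at 0. Levels of cortical excitatory neuron markers (10 genes, among them Slc17a7 and Tbr1) were also above 0 in all libraries, and their summed level ran from 162 to 832 CPM in WT, 521 to 1070 in TyrobpKO, 140.1 to 882 in Q175 and 135 to 998 in Q175_TyrobpKO. The summed level of 9 choroid plexus markers reached 4255 CPM in Q175 replicate 3 against 37.8 to 482 in the other Q175 libraries, and without that library Adcy5 remained called in Q175 against WT. It also stood at 584 and 616 CPM in Q175_TyrobpKO replicates 4 and 6, against 40.9 to 78.5 in WT and 27.4 to 136 in TyrobpKO. In edgeR's carriers against non-carriers, 8 of 9 choroid plexus markers were called higher, and 6 of 9 astrocyte markers, 5 of 9 endothelial and pericyte markers and 4 of 9 oligodendrocyte markers were called lower, against 8.85% of all genes higher and 9.17% lower. In Q175 against WT the counts were 2 choroid plexus markers higher, 1 astrocyte marker higher and 2 lower, and 1 endothelial marker lower. In Q175_TyrobpKO against TyrobpKO, 3 astrocyte, 3 oligodendrocyte and 2 endothelial and pericyte markers were called lower and 0 choroid plexus markers were called. There 3.08% of all genes were called lower. The part of these markers in the Q175 differences of the cyclases was not tested.

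Adcy1 moved with the cortical markers from library to library. When the log2 of the summed cortical level was added to the edgeR fit beside genotype and sex, Adcy1 rose by 0.52 ± 0.03 log2 units per doubling of that sum (SE; quasi-likelihood adjusted p = 2.74e-15), with slopes of 0.47 to 0.77 within the 4 genotypes. Slopes were also positive for Adcy2 at 0.34 ± 0.03 (adjusted p = 4.78e-11), Adcy6 at 0.31 ± 0.04 (1.35e-07) and Adcy8 at 0.26 ± 0.07 (0.0156). Adcy5 had a negative slope of -0.19 ± 0.04 (adjusted p = 8.9e-04). Those of Adcy9 (0.08 ± 0.03), Adcy3 (-0.06 ± 0.03) and Adcy7 (-0.03 ± 0.05) did not pass. So 5 of 8 members had a called slope, where 17% of all genes tested did, and this term was chosen after the data were seen. Without the pair of libraries farthest from the median sum, Q175_TyrobpKO replicate 6 and Q175 replicate 3, the 5 slopes were 0.56, 0.38, 0.39, 0.40 and -0.25 in the same order, all called, and Adcy3 was called as well at -0.09 (adjusted p = 0.0395).

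With the cortical sum in the fit the Q175 differences of Adcy5 were as large or larger. The log2 fold change was -0.84 ± 0.09 with Tyrobp intact (edgeR's quasi-likelihood adjusted p = 5.32e-07) and -0.58 ± 0.10 with Tyrobp deleted (adjusted p = 2.21e-04). Adcy9 was at -0.27 ± 0.07 (adjusted p = 0.0126) with Tyrobp intact. In that fit 13.9% of all genes were called in the first comparison and 8.83% in the second, and the called members were again 2 and 1. For Adcy1 the estimate with Tyrobp intact went to -0.03 ± 0.07, an error several times smaller than without the term.

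Adcy5 followed the projection neuron markers. The sum of 14 markers, among them Ppp1r1b, Penk, Tac1 and Bcl11b and no cyclase, ran from 6173 to 9424 CPM in WT, 5822 to 9178 in TyrobpKO, 4138 to 5601 in Q175 and 3725 to 5659 in Q175_TyrobpKO. Adcy5 in CPM amounted to 18.6% to 20.1% of that sum in WT libraries and 18.1% to 18.9% in TyrobpKO. In Q175 it amounted to 18.7% to 21.1% and in Q175_TyrobpKO to 19.3% to 20.9%. The ratio thus stayed within 18.1% to 21.1% over all 24 libraries while Adcy5 itself ran from 720 to 1854 CPM.

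Within genotypes, Adcy5 rose by 0.93 to 1.12 log2 units per doubling of the projection neuron sum. The slope over all libraries with genotype and sex in the edgeR fit was 1.05 ± 0.07 (quasi-likelihood adjusted p = 8.48e-12), and it was 1.05 without WT replicate 4 and TyrobpKO replicate 6, the libraries farthest from the median sum. Slopes were also called for Adcy3, upward at 0.41 ± 0.08, and downward for Adcy1 (-1.66 ± 0.31), Adcy2 (-1.22 ± 0.16), Adcy6 (-1.09 ± 0.20) and Adcy8 (-1.37 ± 0.23). Slopes of Adcy7 and Adcy9 were not called. This makes 6 of 8 members, against 14.9% of all genes.

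With the projection neuron sum in the fit, Adcy5 had a log2 fold change of 0.06 ± 0.07 in Q175 against WT (edgeR's quasi-likelihood adjusted p = 0.669) and of 0.13 ± 0.06 in Q175_TyrobpKO against TyrobpKO (adjusted p = 0.117). In the same fit of Q175 against WT, 5 of 8 members were called, all lower, against 10.5% of all genes. Adcy1 was at -1.51 ± 0.31 and Adcy2, which like Adcy1 was not called without the covariate, at -1.11 ± 0.16 (edgeR's quasi-likelihood adjusted p = 0.0031 and 5.77e-05), where the values without it were -0.20 and -0.16. Adcy6, Adcy8 and Adcy9 were at -0.87 ± 0.20, -1.02 ± 0.22 and -0.44 ± 0.14. In Q175_TyrobpKO against TyrobpKO, 4 members were called lower (Adcy1, Adcy2, Adcy6 and Adcy8) and Adcy3 higher, against 13.9% of all genes called. The sums of WT and Q175 do not overlap, and neither do those of TyrobpKO (5822 to 9178 CPM) and Q175_TyrobpKO (3725 to 5659 CPM). In Q175 against WT 9 of the 14 markers were themselves called lower, and with Tyrobp deleted 3 of 14. In both comparisons this fit thus compares the genotypes at a marker level that no pair of libraries shares. The part of either marker sum in the Q175 differences was not tested.

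**Figure D4:**
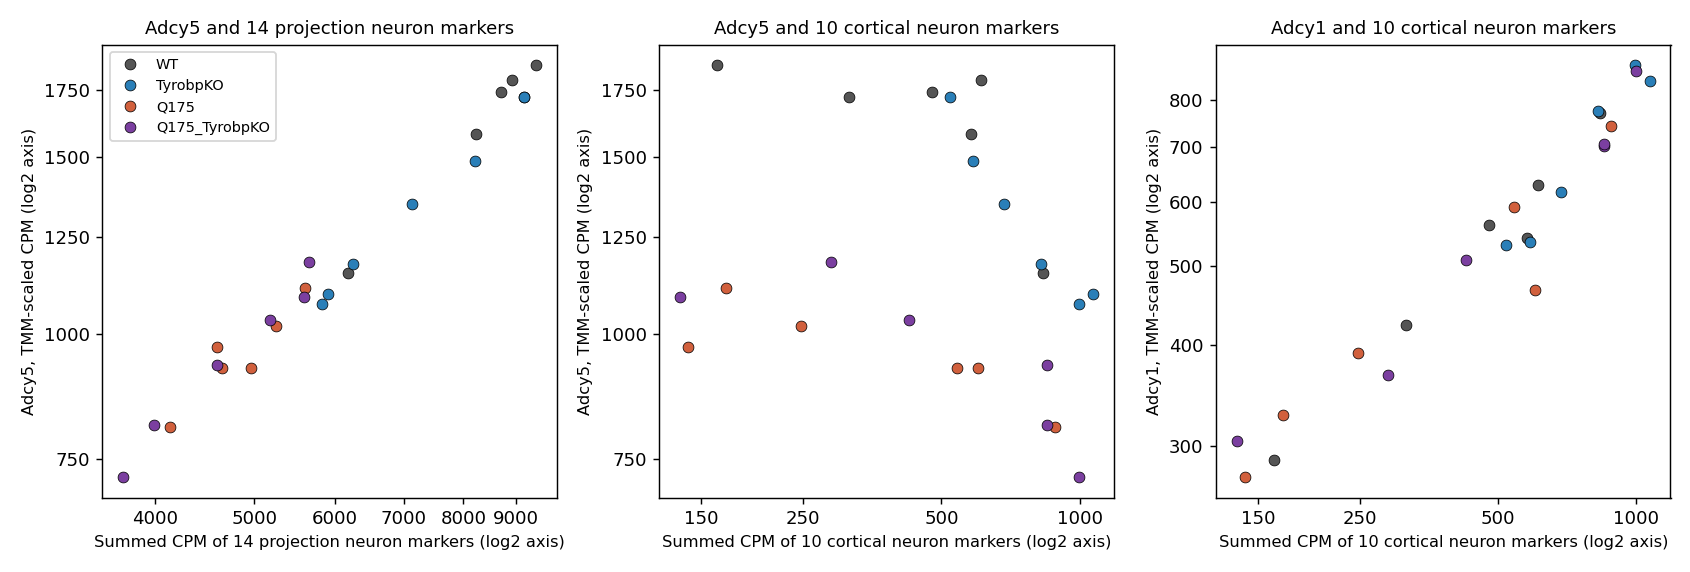
TMM-scaled CPM of Adcy5 (left and middle) and Adcy1 (right) against the summed CPM of 14 projection neuron markers (left) or 10 cortical neuron markers (middle and right) in 24 libraries, with log2 axes and colours for genotype. Adcy5 rises with the projection neuron sum along 1 line in all genotypes (slope 1.05), and Adcy1 rises with the cortical sum (slope 0.52).

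The genes whose pattern was most like that of Adcy5 were found by the root mean square difference of centred log2 CPM over the 24 libraries, among 18854 genes. They were Pde1b, a calcium-activated phosphodiesterase, at 0.052 log2 units, Rasgrp2, an exchange factor of Rap, at 0.071, and Rgs9, a striatal regulator of G protein signalling, at 0.072. The median gene differed by 0.463. For Adcy9 the nearest included the potassium channel gene Kcna1 at 0.108 and the insulin-like growth factor receptor Igf1r at 0.116, against a median of 0.310. Adcy9 thus had no neighbour as close as those of Adcy5.

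Among the genes around Adcy5, receptors that stimulate and receptors that inhibit cyclases were both among those called lower with Q175. The counts below stand against 5.47% of all genes tested called lower and 4.15% called higher in Q175 against WT. They come from the fit of genotype and sex, without either marker sum. Of 19 tested receptors that stimulate cyclases, 3 were called lower, 0 higher and 16 were not called (median log2 fold change -0.09, against 0.01 for all genes tested). They were Adora2a, an adenosine receptor of the indirect pathway, at -0.88 ± 0.16, Gpr6, an orphan receptor of the same neurons, at -0.78 ± 0.12, and Drd1, the D1 dopamine receptor, at -0.70 ± 0.15, with edgeR's quasi-likelihood adjusted p of 1.05e-04 to 0.00298. Of 31 receptors that inhibit cyclases, 13 were lower and 1 higher (median -0.23). Those of smallest p were Hrh3, the histamine H3 receptor, at -0.58 ± 0.07, Cnr1, the cannabinoid CB1 receptor, at -1.03 ± 0.15, and Oprd1, the delta opioid receptor, at -0.53 ± 0.08. Cnr1 had a mean of 463 ± 63.5 CPM in WT and of 227 ± 46.4 CPM in Q175 (SD, n = 6).

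G protein subunits did not move in 1 direction. Of 21 tested, 3 were lower and 3 higher in Q175 against WT (median 0.09): Gnb5, the beta subunit that pairs with Rgs9, was at -0.43 ± 0.08, while the gamma subunits Gng3 and Gng4 were at 0.61 ± 0.11 and 0.89 ± 0.20. Of 26 regulators of G proteins and cyclases 12 were lower and 0 higher (median -0.23), against 5.47% of all genes lower and 4.15% higher, with Rgs14 at -0.98 ± 0.09, Rgs4 at -0.76 ± 0.10 and Cap1, cyclase-associated protein, at -0.41 ± 0.06. Rgs14 had the smallest adjusted p of the pathway genes, 2.08e-08 in edgeR's quasi-likelihood test. Its mean was 66.0 ± 10.3 CPM in WT and 33.4 ± 1.48 CPM in Q175.

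Downstream of the cyclases genes were called in both directions, against the same 5.47% lower and 4.15% higher among all genes. Of 15 phosphodiesterases that degrade cAMP, 4 were lower and 1 higher in Q175 against WT (median -0.09), with Pde10a, the abundant phosphodiesterase of projection neurons, at -0.93 ± 0.15, Pde1b at -0.68 ± 0.13 and Pde4d at 0.39 ± 0.09. Of 19 genes of protein kinase A, its inhibitors and its anchors, 2 were lower and 2 higher (median -0.04). Akap9, an anchor, was at -0.61 ± 0.12, Pkig, an inhibitor, at -0.20 ± 0.06 and Prkar2a, a regulatory subunit, at 0.28 ± 0.07. Of 12 genes of Epac and the cAMP-responsive transcription factors, 1 was lower, Crem at -0.37 ± 0.08, and Creb1 (0.16 ± 0.06) and Crtc1 (-0.17 ± 0.06) did not pass. That 1 of 12 is near the share of all genes, 9.63% called in either direction. These lists were compiled from general knowledge with earlier results of these data known.

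In mice without Tyrobp 5.86% of all genes were called, 3.08% lower and 2.78% higher, against 9.63% in Q175 against WT. Of the lists, 3 of 19 stimulatory receptors were lower, 6 of 31 inhibitory receptors were lower and 1 higher, and 8 of 26 regulators were lower. Among G protein subunits 1 was lower, among phosphodiesterases 2 were lower and 1 higher, among protein kinase A genes 2 were higher, and among Epac and transcription factor genes 0 passed. Pde10a stood at -0.72 ± 0.15 and Cnr1 at -0.92 ± 0.15, both called, and Pde1b at -0.42 ± 0.13 did not pass (edgeR's quasi-likelihood adjusted p = 0.0688). Whether the lists differ between the Tyrobp backgrounds was not tested. No gene of the 7 lists was called in edgeR's TyrobpKO against WT or Q175_TyrobpKO against Q175. The remaining cyclases Adcy4, found in blood vessels, and Adcy10, the soluble form, were scarce, at 3.06 ± 0.227 and 0.825 ± 0.169 CPM in WT, and were not called in any of the 10 contrasts.

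**Figure D5:**
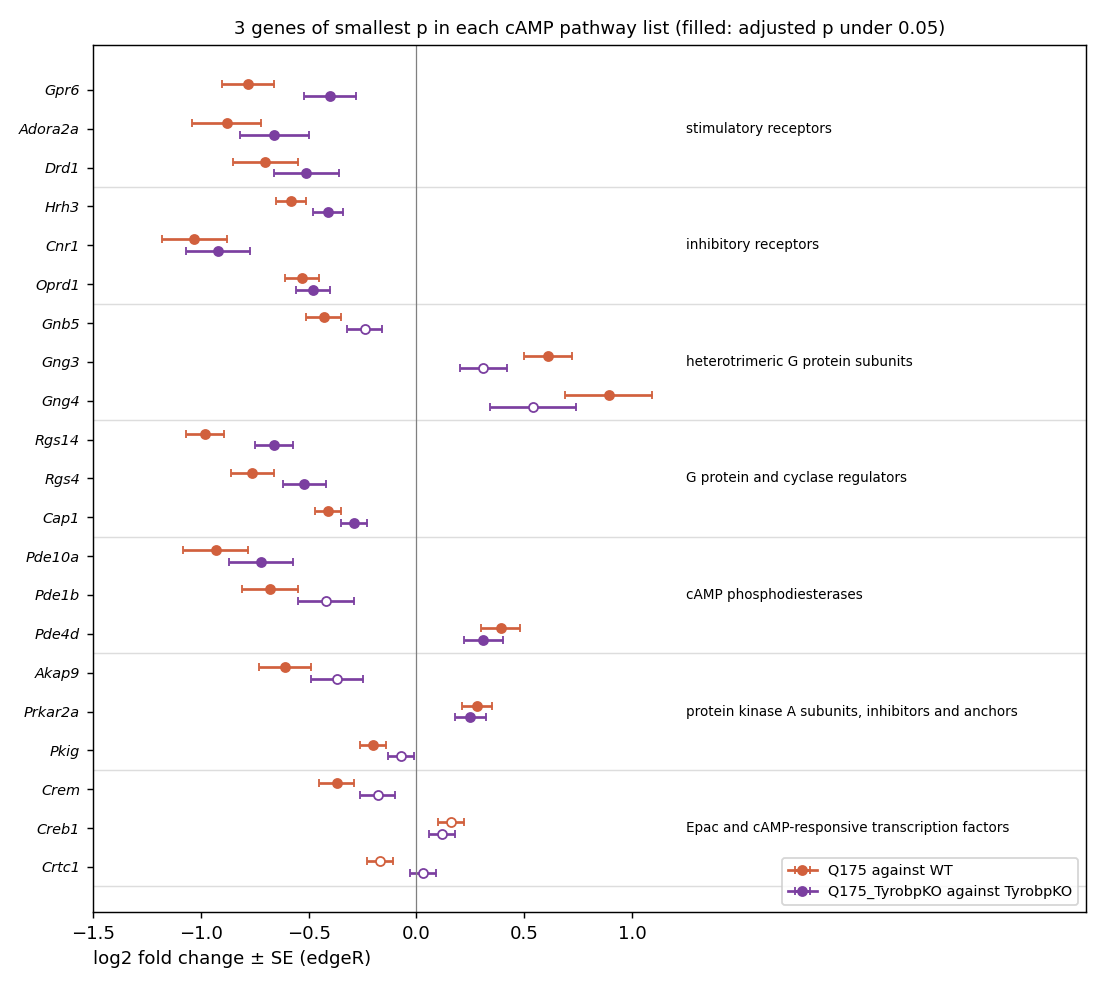
Log2 fold change with SE (horizontal axis, edgeR) of the 3 genes of smallest p in Q175 against WT from each of 7 cAMP pathway lists (vertical axis), in Q175 against WT (orange) and Q175_TyrobpKO against TyrobpKO (purple), with filled points for an adjusted p under 0.05. The genes were picked by the orange values, which run from -1.03 for Cnr1 to 0.89 for Gng4.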

How the data were processed

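The authors deposited a table of whole-number read counts by gene, not normalized, for 24 libraries. Per the submitters' processing notes the tools were STAR, featureCounts and DESeq2, with no version given, and the build GRCh38, which is human. The deposited table holds mouse genes: 54495 of its 54532 identifiers were found in GENCODE M21 (GRCm38), 98.3% with the same start and end. Strand setting is not given in the sources used here.

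From the counts, edgeR 4.0.16 in R 4.3.3 gave TMM factors, the filterByExpr filter on genotype (19667 genes) and the quasi-likelihood test, robust, in 1 fit of all 24 libraries on genotype and sex. The sex difference of the Q175 effect was fitted with separate means for males and females of each genotype. A call means an adjusted p (Benjamini-Hochberg, all genes tested) under 0.05. The SE is the log2 fold change divided by the root of the test's F. The biological coefficient of variation was 15.9%. Each library held 25482686 to 34626720 counts. On simulated counts for Q175 against WT (19667 genes), the test recovered 72% of 100 genes changed by 0.5 on the log2 scale and 96% of 100 changed by 1. The changed genes were drawn only from those averaging more than 100 reads, each gene was simulated independently, and 5 unchanged genes were called. Alternatives used RLE factors, DESeq2 1.42.0, limma-voom 3.58.1, other filters, no sex term, fewer libraries and marker sums as covariates, the last chosen after seeing the data.

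The members and gene lists were chosen with earlier results of these data known. Named genes are the 8 members, Adcy4, Adcy10, Tyrobp, Htt, the 3 genes of lowest p in each pathway list (Q175 against WT), and the 3 nearest genes in pattern to each member called there. Of the genes that this rule names, 1 is not reported here.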

Additional observations from a re-analysis of the deposited data

Results flagged for a closer look

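In groups of 6 libraries, a single library was checked for standing apart by Dixon's ratio, the gap to the next library over the whole range, with a critical value of 0.625. Over 32 sets of 1 member in 1 genotype, 2 libraries stood apart, where chance flags about 1 in 20 sets. Adcy3 in WT replicate 5 was at 53.75 CPM, below the other 5 WT libraries at 66.99 to 73.77 CPM (ratio 0.661). The same library had the lowest Adcy5 (1149 CPM), the highest Adcy1 (770.9 CPM), the highest cortical marker sum (832.4 CPM) and the lowest projection neuron marker sum (6173 CPM) of its genotype. Adcy8 in Q175 replicate 1 was at 13.75 CPM, above the other 5 Q175 libraries at 6.813 to 7.854 CPM (ratio 0.85). That library also had the highest cortical marker sum of its genotype (882.5 CPM) and its lowest Adcy5 (807.9 CPM). The part of the marker sums in these values was not tested.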

How the results depend on the processing

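No paired analysis was possible because the labels give no replicate numbers shared between genotypes. Calls of the 28 member results, tested again under alternatives, were lost as given in the report, and RLE factors, a minimum of 10 reads in every library and no sex term lost none of them. Adcy9 was also not called in Q175 against WT in males (adjusted p = 0.234) or females (0.279) alone, nor in carriers against non-carriers in either. Adcy5 and Adcy9 in carriers against non-carriers stayed called with DESeq2, limma-voom and no filter on low counts. Adcy7 and Adcy8 had the fewest reads of the members, at 135 to 380 per library. In edgeR's Q175 against WT the SE was 0.12 for Adcy7 and 0.23 for Adcy8. The largest SE there was that of Adcy1, at 0.29, so the members with the fewest reads were not the least precise.

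Direction turned mostly where the estimate was near 0, and the cause was not tested. Adcy6 in Q175 against WT was -0.0016 with RLE factors, -0.00091 with DESeq2, -0.02 with limma-voom, -0.01 with no filter, -0.0043 with at least 10 reads, -0.0041 with only 12 libraries, -0.02 in females and -0.87 with the projection neuron sum. Adcy5 in Q175_TyrobpKO against Q175 was -0.01 with limma-voom and -0.02 in females. Females alone also turned, in Q175 against WT, Adcy3 (0.01), Adcy7 (-0.18) and Adcy8 (-0.31), in Q175_TyrobpKO against TyrobpKO, Adcy1 (0.03), Adcy3 (-0.01), Adcy6 (0.21) and Adcy8 (0.31), Adcy7 in Q175_TyrobpKO against Q175 (0.02) and the Adcy5 interaction (-0.01). Males alone gave Adcy3 0.01 in Q175_TyrobpKO against Q175. The cortical sum turned that value (0.01) and, in Q175_TyrobpKO against TyrobpKO, Adcy1 (0.01), Adcy6 (0.13) and Adcy8 (0.08). The projection neuron sum turned Adcy5 to 0.06, 0.13 and 0.10 (Q175 against WT, Q175_TyrobpKO against TyrobpKO, carriers) and, in Q175 against WT, Adcy3 to 0.24 and Adcy8 to -1.02.

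Members called in Q175 against WT (2) became 1 with only 12 libraries, 1 in males, 0 in females and 5 with the projection neuron sum. In Q175_TyrobpKO against TyrobpKO (1) they became 0 with limma-voom, no filter, only 12 libraries or males alone, and 5 with the projection neuron sum. In Q175_TyrobpKO against WT (1) they became 0 in females and 4 with the projection neuron sum, and in carriers (2) 1 in males, 1 in females and 6 with that sum. Genes called in males and in females alone were 759 and 187 (Q175 against WT, 1893), 104 and 290 (Q175_TyrobpKO against TyrobpKO, 1153), 65 and 8 (TyrobpKO against WT, 23), 11 and 11 (Q175_TyrobpKO against Q175, 31), 752 and 240 (Q175_TyrobpKO against WT, 1857) and 1242 and 1195 (carriers, 3544). The cortical and projection neuron sums gave 1736 and 2731 in Q175_TyrobpKO against TyrobpKO and 2 and 1 for the interaction (0). DESeq2 gave 52 in Q175_TyrobpKO against Q175, 82 for Tyrobp-deleted against intact (41; females 19) and 2 for the interaction. At least 10 reads gave 6 for female against male (16).

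With each library left out in turn, members called ranged from 1 to 2 in Q175 against WT and from 0 to 1 in Q175_TyrobpKO against TyrobpKO, and genes called for the interaction from 0 to 2. Log2 fold changes crossed 0 for Adcy6 (-0.11 to 0.09), Adcy7 (-0.03 to 0.09) and Adcy8 (-0.17 to 0.27) in Q175 against WT, for Adcy6 (-0.14 to 0.05) and Adcy8 (-0.20 to 0.04) in Q175_TyrobpKO against TyrobpKO, and for Adcy5 (-0.08 to 0.07) and Adcy3 (-0.04 to 0.02) in Q175_TyrobpKO against Q175.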
